A study of Mus musculus with 2 samples.

Results

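Some genes exist in the mouse genome as near-identical copies, and an oligonucleotide array often cannot tell such copies apart. Described here are the 932 probe sets, of 45037 without the Affymetrix controls, for which the platform annotation lists 2 or more gene symbols. The arrays were Affymetrix MOE 430 2.0, and total RNA came from mouse embryonic stem cells (ES cells), on 1 array from cells that served as the control and on 1 array from cells whose title names a Dnmt1 knockout (KO). The source name of the KO sample also calls it a control, so the group was taken from the title. The sources used here do not give the strain, the clone, the passage, the culture or the deleted part of Dnmt1. The series' stated purpose was a KO control for other work on stem cell differentiation. Because there was 1 array per group, each value below is a single measurement without a replicate check, and no test between the groups was possible.

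Dnmt1 copies DNA methylation onto the new strand after replication. In mouse cells that methylation is known to keep silent many germline genes, 1 parental copy of imprinted genes, and repeated sequences. Gene families that arose by repeated duplication are common among germline genes, above all on the X chromosome. Close copies often share a probe set, because few stretches of a transcript are particular to 1 copy.

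A shared probe set reports the summed hybridisation of all transcripts it can bind, and which of the listed genes contributed cannot be read from its signal. Each is therefore named here by its identifier and all its listed genes. Values are MAS5 signals on a linear scale. A signal under the array's own median, 60.9 for the control and 74.2 for the KO, was raised to that median, which is called the floor. Ratios are KO over control, given relative to the median log2 ratio of the 20936 probe sets with both signals above the floor. That median was 0.40 (1.32-fold), and it is called the shift. Where only the KO signal exceeded the floor, the ratio has only a lower bound, written as at least N-fold.

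In the library labelled Dnmt1 KO, the targeted gene was low. Its 3 single-gene probe sets went from 1949.1 to 262.1, from 874.7 to 56.8 and from 348.3 to 20.0, and the last 2 KO signals were below the floor. All 10 ES cell markers exceeded the floor on both arrays, with summed signals of 28318.1 and 37284.1. Pou5f1, which encodes the pluripotency factor Oct4, went from 2689.7 to 3297.0 (log2 ratio -0.11). Others of the list were not level. Klf4 went from 187.1 to 947.8 (1.94), Nanog from 592.5 to 1965.5 (1.33), Esrrb from 361.8 to 1098.1 (1.20) and Utf1 from 2460.9 to 2154.9 (-0.59), all encoding pluripotency factors. Of 14 markers of fibroblasts, the usual feeder cells, 8 exceeded the floor on both arrays, and Col3a1, S100a4, Postn, Dcn and Lum did so on neither. The summed signal of the list was 3706.8 on the control and 4873.0 on the KO array. Of 10 trophoblast markers, 6 exceeded it on both arrays, with sums of 1806.5 and 3811.9 and a median log2 ratio of 0.59, while Elf5 and Gata3 did so on neither. Of 11 primitive and visceral endoderm markers, 4 exceeded it on both arrays, with sums of 1797.5 and 2869.4, while Sox7, Afp and Ttr did so on neither. The part of such cells in the values below was not tested, and more cells of a type cannot be told apart from more RNA per cell.

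The letters of the array's own probes were not used here. To show sequence before copies behind 1 probe set, the 250 bases before the annotated start of several listed genes are printed, from RefSeq on GRCm38.p6. They were chosen because the probe sets of these genes were among those with the largest ratios or bounds. The sequences run 5′ to 3′ on the gene's strand. Capitals mark CG, the dinucleotide that Dnmt1 methylates, which reads the same on both strands.
Xlr3b (chrX:73191929-73192178, plus strand): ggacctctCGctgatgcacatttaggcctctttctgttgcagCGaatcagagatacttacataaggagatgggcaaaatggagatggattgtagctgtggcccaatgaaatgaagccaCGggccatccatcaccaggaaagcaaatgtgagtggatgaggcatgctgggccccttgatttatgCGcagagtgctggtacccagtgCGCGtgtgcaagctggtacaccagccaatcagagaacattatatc
Xlr3c (chrX:73265391-73265640, minus strand): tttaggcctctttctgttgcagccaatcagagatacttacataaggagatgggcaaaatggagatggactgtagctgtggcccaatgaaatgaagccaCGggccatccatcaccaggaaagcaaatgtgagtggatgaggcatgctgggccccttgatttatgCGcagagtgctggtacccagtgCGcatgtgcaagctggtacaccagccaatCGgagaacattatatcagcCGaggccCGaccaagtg
Xlr4a (chrX:73082508-73082757, minus strand): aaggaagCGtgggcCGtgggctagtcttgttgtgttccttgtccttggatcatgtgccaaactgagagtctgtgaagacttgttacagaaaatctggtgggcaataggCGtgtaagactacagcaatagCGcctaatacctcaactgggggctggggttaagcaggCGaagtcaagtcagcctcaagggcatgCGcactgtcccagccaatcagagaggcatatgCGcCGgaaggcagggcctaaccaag
Xlr4b (chrX:73214083-73214332, plus strand): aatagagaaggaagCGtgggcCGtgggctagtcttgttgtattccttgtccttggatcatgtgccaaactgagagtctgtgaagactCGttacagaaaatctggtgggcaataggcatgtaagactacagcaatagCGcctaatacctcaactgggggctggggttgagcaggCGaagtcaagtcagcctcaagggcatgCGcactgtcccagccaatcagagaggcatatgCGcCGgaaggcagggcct
Fthl17b (chrX:8962976-8963225, minus strand): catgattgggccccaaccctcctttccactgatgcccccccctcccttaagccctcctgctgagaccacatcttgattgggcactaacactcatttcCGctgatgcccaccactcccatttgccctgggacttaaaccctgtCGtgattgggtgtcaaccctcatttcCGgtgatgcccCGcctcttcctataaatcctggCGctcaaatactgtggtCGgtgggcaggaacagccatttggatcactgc
Zscan4c (chr7:11005495-11005744, plus strand): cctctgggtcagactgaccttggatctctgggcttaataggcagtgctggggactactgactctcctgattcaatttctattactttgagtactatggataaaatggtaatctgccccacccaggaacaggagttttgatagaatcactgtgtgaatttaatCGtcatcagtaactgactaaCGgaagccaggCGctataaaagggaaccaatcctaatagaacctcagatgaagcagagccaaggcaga
Gm8764 (chr10:104159756-104160005, plus strand): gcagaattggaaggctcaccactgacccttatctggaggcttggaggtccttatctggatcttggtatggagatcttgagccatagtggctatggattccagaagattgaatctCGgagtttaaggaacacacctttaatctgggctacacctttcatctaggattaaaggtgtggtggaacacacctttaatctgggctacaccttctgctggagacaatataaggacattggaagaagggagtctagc
The windows of Xlr3b and Xlr3c were 83.7% identical in a global alignment, and those of Xlr4a and Xlr4b 93.0%. Other pairs among the windows printed above scored lower. The percentages count gaps as differences, so windows with shifted annotated starts score low even where their overlap is identical. Shifted starts and changed bases are thus not separated. Xlr3a, with 3 CG in its window, matched Xlr3b at 56.9% and Xlr3c at 48.6%. The highest value between aligned windows of different lists was 55.3%, for Xlr3c and Xlr4a. Xlr4a and Xlr4c matched at 77.1%. The window of Fthl17c was identical to that of Fthl17b. Zscan4c and Zscan4d matched at 89.3%, and Zscan4d and Zscan4f at 73.6%. BB287469 and Gm4027 matched at 71.8%, with 209 identical bases in 291 aligned columns that include the offset of the windows. Xlr3b and Xlr3c held 6 CG each, Xlr4a and Xlr4b 8 each, Fthl17b 6, Zscan4c 3 and Gm8764 1.

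Over the whole array, shared probe sets were measured slightly more often than single-gene ones and lay near the same centre. Their highest ratios or bounds were far out. Above the floor were 521 of the 932 on control and KO alike, 38 on the KO array alone, 26 on the control array alone and 347 on neither. This left 585 measured (62.8%), against 53.3% of the other probe sets. Among these others the share was 60.2% with 1 gene symbol and 26.8% without a listed gene. The shared probe sets had a median log2 ratio of -0.03, beside -0.01 over all probe sets measured. A ratio or bound of 2-fold or more above the shift was found for 20 of the 585 (3.42%), and none was 2-fold below it. Over all 24084 measured probe sets the background was 1.13% higher and 0.531% lower. As deposited, with no shift taken off, 44 shared probe sets were higher and none lower, against backgrounds of 4.49% and 0.125%.

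The 20 higher probe sets covered 19 gene lists. Of these probe sets, 11 were above the floor on the KO array alone, so their ratios are bounds, and 9 were above it on both arrays. Of all probe sets measured on both arrays, the one listing H19 and Mir675 had the largest ratio of the array, a log2 ratio of 3.10, beside 3.08 for the largest outside the shared ones. Among lower bounds, the largest were the 4.76 of the Xlr3 probe set here and 2.90 outside the shared ones. The 10 largest ratios or bounds of the whole array included 5 shared probe sets, and the 50 largest included 10. Shared probe sets made up 585 of the 24084 measured. The 4 highest of all were bounds of shared probe sets above the floor on the KO array alone. Of the 20, 12 (60.0%) listed genes for which the array has no single-gene probe set at all, near the 54.0% among all 585 measured. With the floor at each array's 75th percentile, 8 of the 20 no longer reached 2-fold. These were both Xlr5 probe sets, Dmrtc1c1 with Dmrtc1c2, and the lists with Gm2022, Gm2832, Tmem181a, Plp2 and Serpinb9e.

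The X-linked families gave the largest values. Xlr genes form clusters on the X chromosome and are related to the meiotic chromosome protein Sycp3. For Xlr3a, Xlr3b and Xlr3c, the probe set (1420357_s_at) went from 33.1 to 2183.3, at least 27.1-fold higher. That for Xlr4a, Xlr4b and Xlr4c (1449347_a_at) went from 32.8 to 886.6, at least 11.0-fold. Both were below the floor on the control array and far above it on the KO array. The only single-gene probe set for any Xlr4 gene, Xlr4c, was 12.2 and 67.4, below the floor on both.

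Xlr5a, Xlr5b and Xlr5c shared a pair of probe sets. One (1422933_at) went from 3.4 to 305.0, at least 3.79-fold, and the other (1443483_at) from 16.7 to 163.8, at least 2.03-fold. Both passed the floor on the KO array alone, which largely fixes their direction, and their bounds differ because the KO signals do. The remaining Xlr probe set, listing Xlr and 3830403N18Rik, was 8.6 and 9.9, so this member of the family was below the floor on both arrays.

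Outside the Xlr group, the X-linked ferritin heavy chain-like genes were also among the highest. Fthl17b, Fthl17c, Fthl17d, Fthl17e and Fthl17-ps1 shared a probe set (1419540_at) that went from 37.7 to 745.5, at least 9.26-fold. A probe set for Pramel3, of the PRAME family of cancer/testis antigens, and for Gm15023, Gm7903, AV320801 and Gm5128 (1449962_at) went from 2.1 to 859.3, at least 10.7-fold. The X-linked genes Dmrtc1c1 and Dmrtc1c2, of the Dmrt family, shared a probe set (1453544_at) that went from 54.0 to 261.5, at least 3.25-fold. Each of the 3 was below the floor on the control array alone.

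Other X-linked germline families were lower in signal or had smaller ratios or bounds. Magea1, Magea2, Magea3, Magea5, Magea6 and Magea8, of the MAGE cancer/testis antigens, shared a probe set (1450542_s_at) that went from 48.7 to 112.4, a log2 ratio of at least 0.48. The probe set for Luzp4, Ott and 7 predicted genes (1427346_at) went from 106.5 to 265.7, a log2 ratio of 0.92. The first is only a lower bound, and the second lay under 2-fold. The probe sets for Mageb5 with Gm14781, Ssxb1 with Ssxb6, the Samt1 genes, the Spin2 copies and a Slx-type list were below the floor on both arrays, with no signal over 46.6. In all, 13 probe sets belonged to the list of X-linked germline families, 7 were measured, and 5 of these were at least 2-fold higher. Of the 7, 6 were measured through the KO array alone, so their count is a description of bright KO signals. Over all probe sets measured, 1.13% were higher, and the list was chosen with earlier results of these data known. No Rhox gene was on a shared probe set.

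By chromosome, 42 shared probe sets had all their matched genes on X. Among the 25 measured, 7 passed 2-fold upward and 0 downward, with a median log2 ratio of 0.20. All 7 were above the floor on the KO array alone, as were 10 of the 25, while 0 were so on the control array alone, so this share and median partly restate the filter. Single-gene probe sets on X had a median of -0.04, and 3.18% of 692 passed 2-fold upward.

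Families of the 2-cell-like state came next. This is a rare state of ES cells that resembles the 2-cell embryo, and Zscan4 genes, zinc finger genes that act at telomeres, are its best known markers. Zscan4a, Zscan4c, Zscan4d, Zscan4f, LOC100862413 and LOC100862415 shared a probe set (1457033_at) that went from 184.1 to 925.9, 3.80-fold higher. Both signals were above the floor. No Zscan4 gene had a single-gene probe set, and the copies cannot be separated.

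The other measured members of this list were also higher on the KO array. Gm6763, Gm8764, Gm4340, Gm20765, Gm21293, Gm21304 and Gm21312, predicted genes on chromosome 10, shared a probe set (1443961_at) that went from 199.7 to 1705.2, 6.46-fold. A probe set listing Gm4027, BB287469 and Eif1a (1427479_at) went from 110.4 to 906.6, 6.21-fold. Eif1a encodes a translation initiation factor, and the other 2 listed genes lie on chromosome 12.

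For the Eif1a list the single-gene probe sets give a direct comparison. The 2 probe sets for Eif1a alone went from 1333.1 to 1838.8 and from 669.8 to 903.1, log2 ratios of 0.06 and 0.03. The shared probe set lay 2.59 above their mean on the log2 scale. It thus did not follow the Eif1a probe sets.

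Gm2022, Gm5662 and Gm8300, also on chromosome 12, shared a probe set (1444529_at) that went from 29.5 to 179.5, at least 2.23-fold. The Pramel3 probe set described above also belonged to this list through its Pramel symbol. With it, 5 of the 15 probe sets of the list were measured, and all 5 were at least 2-fold higher, 2 of them through the KO array alone. Over all probe sets measured, 1.13% were higher. The list was chosen with earlier results of these data known, so the count only describes these probe sets. The 10 others were below the floor on both arrays. They included both probe sets for Usp17lc and Usp17ld, of a deubiquitinase family (3.7 to 23.2 and 8.6 to 45.5), and the one for the homeobox genes Obox1 and Obox2 (10.3 to 19.9). They also included the 3 probe sets that list the oocyte genes Oog1 or Oog2, with no signal over 16.1. Outside the list, a probe set for Duxf3, Gm4981 and Gm9919, chosen after its value was seen because Dux activates the 2-cell-like state, was 13.4 and 53.5, below the floor on both arrays.

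Imprinted genes on shared probe sets numbered few, but included the largest ratio measured on both arrays. That for H19 and Mir675 (1448194_a_at) went from 493.8 to 5607.1, 8.59-fold higher, or 11.4-fold as deposited. H19 is a noncoding RNA expressed from the maternal copy, and the microRNA miR-675 is cut from it. The array has no single-gene probe set for H19. The mature forms are printed because the annotation names the microRNA beside its host, with the seed, bases 2 to 8, in capitals.
mmu-miR-675-5p (chr7:142577112-142577133, minus strand): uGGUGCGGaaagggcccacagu
mmu-miR-675-3p (chr7:142577078-142577099, minus strand): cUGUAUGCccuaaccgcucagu
Whether the mature microRNA changed cannot be read from this probe set.

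Snrpn, a splicing protein gene expressed from the paternal copy, shares its transcript with Snurf. Of 6 probe sets that list both, 4 were above the floor on both arrays. They went from 2071.7 to 3726.3, from 1662.3 to 2956.8, from 919.8 to 1551.1 and from 1727.6 to 2779.2, log2 ratios of 0.44, 0.43, 0.35 and 0.28. All 4 lay above the shift within a narrow range, and none reached 2-fold. The probe set listing Airn and Igf2r was below the floor on both arrays, at 8.3 and 32.7. Another microRNA host, 6430411K18Rik with Mir127 in the imprinted Dlk1 domain (1453446_at), went from 71.0 to 147.6, a log2 ratio of 0.65. Of 17 probe sets listed with a small RNA gene or its host, 12 were measured, and the median log2 ratio was -0.09. The H19 probe set was the only one of them at least 2-fold from the shift.

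The remaining higher probe sets had no common family. The brightest of the 20 listed Noct, Cog6 and Sgip1 (1448715_x_at), which encode a circadian protein, a Golgi tethering subunit and an endocytosis protein on chromosomes 3 and 4. It went from 3167.3 to 13119.1, 3.13-fold higher. The single-gene probe sets of the same genes did not share this. Noct went from 1688.5 to 2487.7 (log2 ratio 0.16), Cog6 from 314.7 to 412.1 (-0.01), and all 5 for Sgip1 were below the floor on both arrays. The suffix _x_at marks probe sets with probes that can also bind other transcripts.

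Tuba3a and Tuba3b, alpha-tubulin genes with high expression in testis, shared 2 probe sets. One (1448296_x_at) went from 612.8 to 2027.6, 2.50-fold higher. The other (1416311_s_at) went from 1034.3 to 1814.8, a log2 ratio of 0.41, so the probe sets had the same sign but differed by more than the 0.19 (SD) found between shared probe sets of 1 gene list over 98 lists. Serpinb9e, Serpinb9f, Serpinb9g and Serpinb9h, serine protease inhibitors, shared a probe set (1418423_s_at) that went from 64.3 to 212.8, 2.50-fold, with the control floor at 60.9.

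Tulp4, of the tubby-like family, was listed with Gm2808 on 3 probe sets. They went from 284.3 to 785.4 (2.09-fold), from 101.6 to 200.5 (log2 ratio 0.58) and from 15.8 to 16.2 (below the floor). Thus 1 of 3 passed 2-fold. Ass1, an enzyme of arginine synthesis listed with the pseudogene Gm5424 (1416239_at), went from 906.5 to 2592.5, 2.16-fold, while the single-gene probe set for Ass1 was 69.7 and 42.4. The probe sets for Gm2832 with Gm8267 (38.7 to 361.2), Tmem181a with 2 pseudogenes (45.8 to 246.4) and Plp2 with Gm13669 (59.0 to 169.7) were at least 4.49-fold, 3.06-fold and 2.11-fold higher. The latter 2 again stood apart from single-gene probe sets, which gave log2 ratios of 0.30 for Tmem181a and 0.13 for Plp2.

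Histone genes form a large shared group, since the replication-dependent genes lie in clusters of near-identical copies, whereas variant histones such as H3.3 and H2A.Z lie outside these clusters and have pseudogenes. Of 27 histone probe sets, 16 were measured, and none was 2-fold different. Taken from the shift, their median log2 ratio was -0.03, and it was 0.37 as deposited. When the list was split after its values were seen, 6 of 8 measured probe sets of clustered genes lay above the shift, with a median of 0.43. Of the 8 measured that the split counted as variant histones, 1 lay above it, with a median of -0.23. These took in H2aw with Trim17 (-0.33), although H2aw is usually placed with the clustered genes. The others were repeated probe sets of the H3f3 and H2az1 lists and are not independent.

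Among clustered genes, a probe set for 11 genes that includes H2bc4, H2bc6 and H2bc8 (1452540_a_at) went from 189.7 to 472.0, a log2 ratio of 0.91. Another for those 3 H2B genes alone (1418072_at) went from 159.7 to 363.7 (0.78). One for 13 H4 genes (1422948_s_at) went from 105.1 to 258.7 (0.90), and another for the same 13 genes (1424854_at) from 70.0 to 101.5 (0.13). Thus both of these H2B probe sets were higher on the KO array, and these H4 ones differed in size. Other probe sets for the same 3 H2B genes and the same 13 H4 genes were below the floor on both arrays. One for 10 H2A genes (1438009_at) was bright on both arrays and went from 5784.5 to 6903.6 (-0.15). Among variants, the 5 probe sets for H3f3a, H3f3b, H3f3c and pseudogenes ranged from -0.38 to 0.12, and those for H2az1 with Gm8203 gave -0.31 and -0.50. Transcripts of clustered histone genes mostly lack a poly(A) tail, and the labels do not state the primer of the labelling reaction.

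Ribosomal protein genes, each with many processed pseudogenes, were the largest group. Of 110 probe sets, 103 were measured, and none was 2-fold different. Their median log2 ratio was -0.12, and 22 (21.4%) lay above the shift, beside 48.3% of all probe sets measured. As deposited the median was 0.28, and it was 0.01 after quantile normalization, so the direction depended on the scaling. The brightest listed Rps2, Gm10420 and Gm6139 (1422156_a_at), with 12066.8 and 13166.2. The lowest listed Rpl37 with its retrogene Rpl37rt (1450838_x_at) and went from 127.7 to 95.3 (-0.82). A single-gene probe set for Rpl37 went from 2252.5 to 3457.3 (0.22).

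Rps27 gave the reverse case. Its single-gene probe set went from 376.2 to 131.6, a log2 ratio of -1.92. The probe set shared with Rps27rt (1415716_a_at) went from 5269.4 to 6685.6, a log2 ratio of -0.06. The 2 probe sets thus differ by 1.86 on the log2 scale, and the shared one lay close to the other ribosomal protein genes. Housekeeping families such as tubulins, Ppia and translation factors had 61 measured probe sets of 68 and a median of 0.01, and the Tuba3 probe set above was the only one of them at least 2-fold different.

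The remaining families were either mostly below the floor or near the shift. All 6 probe sets for clustered protocadherins, all 12 for olfactory and vomeronasal receptors and 21 of 25 for immune receptor families did not exceed the floor on either array. Of 32 zinc finger probe sets 19 were measured, with a median of 0.06. The brightest of these listed Rex2, Zfp980 and Zfp600 (1438237_at) and went from 4591.5 to 8689.7 (0.52), while Rex2 alone went from 326.2 to 1196.2 (1.47). Of 15 for H2 genes of the major histocompatibility complex 7 were measured, with a median of 0.00 (range -0.45 to 0.81). The highest listed H2-T9, H2-T10 and H2-T22, genes outside the classical class I set, and went from 77.5 to 180.2. Of 21 interferon-related probe sets 5 were measured. One for 9 interferon alpha genes (1422403_at) went from 114.7 to 97.7 (-0.63), another for the same genes (1422404_x_at) from 44.6 to 91.1 (at least 0.18). The interferon list thus held no member at 2-fold in either direction.

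No shared probe set reached 2-fold lower by its ratio or bound. Several of the lowest were bounds set by the KO floor, so their size is not known. The lowest value was such a bound, for Gcat and Galr3 (1450581_at, 100.7 to 36.4), at least 1.79-fold lower. Over the processing settings its log2 ratio went as low as -1.84. For Adam1a with Mapkapk5 (1458197_x_at, 88.7 to 10.1) it went as low as -3.42. Glrx3 with Gm12669 (1447868_x_at) went from 158.6 to 118.0 (-0.83), while Glrx3 alone went from 122.6 to 172.1 (0.09). Wdr83os with Gm2573 and Gm13770 (1424117_at) went from 510.2 to 404.0 (-0.74). A pair of probe sets for 6820431F20Rik, 2610005L07Rik and Gm40469 or Gm21811 went from 802.6 to 644.3 (-0.72) and from 365.5 to 330.7 (-0.55). Of the 15 lowest above the floor on both arrays, 5 listed a gene on chromosome 8. This compares with 7.69% of all 585 measured. The 10 measured probe sets with all matched genes on chromosome 8 had a median of -0.38, and single-gene probe sets there had -0.36, so both kinds were low on that chromosome.

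The kind of sharing differed among the members. Of 1551 listed gene identifiers, 1484 were in the RefSeq table, and 1143 had no single-gene probe set. The largest list held 18 symbols, and 671 probe sets had exactly 2. Genes of several chromosomes were listed on 329 probe sets. Of these 295 were measured (89.7%), and 5 were at least 2-fold higher. Neighbouring, non-overlapping genes of 1 chromosome, at most 10 genes apart, were listed on 281, of which 128 (45.6%) were measured and 10 (7.81%) were higher. Genes of 1 chromosome that lay farther apart were listed on 125, of which 53 (42.4%) were measured and 4 (7.55%) were higher. Overlapping genes were listed on 127, with 69 measured and 1 higher, the H19 probe set. Over all probe sets measured, 1.13% were higher. Of the 128 neighbour lists measured, 25 were above the floor on the KO array alone and 10 on the control array alone. Of the 53 farther apart, these were 8 and 2. The shares called therefore partly restate the filter. Lists of non-overlapping genes on 1 chromosome, near and farther apart, had like shares measured and called. These classes rest on position and do not show that the listed genes are copies. The neighbours included unlike genes, such as Cog8 with Pdf and Ndufb2 with Adck2. The suffixes _s_at and _x_at, which mark probes shared among transcripts, were on 15.6% and 16.2% of the shared probe sets and on 5.24% and 5.83% of single-gene ones.

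Shared and single-gene probe sets of the same genes could be set side by side for 180 shared probe sets, with both above the floor on both arrays. The median difference in log2 ratio was 0.01, with an SD of 0.47. Across these probe sets, which share arrays and are not independent, Pearson's r was 0.21. In 29 cases the difference was at least 0.5 and in 6 at least 1. The largest in size besides those of Eif1a, Rps27 and Noct were for Gm9222 and Lin52. Gm9222 alone went from 85.5 to 493.4 (2.13), while the probe set shared with Gm5784 and 9030624G23Rik went from 121.0 to 123.9 (-0.37). Of 2 probe sets for Lin52 alone, 1 was below the floor on both arrays and the other went from 117.3 to 110.8 (-0.48), while the probe set shared with Gm7020 went from 134.0 to 300.6 (0.76). The signs were opposite for Gm9222 and Lin52.

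The CG content before the start of the listed genes was counted in RefSeq windows of 250 bases, such as those printed above. Of the 62 genes listed by the 20 higher probe sets, 47 had a window, and the 51 windows had a median of 6 CG (range 0 to 40). The median over all 32851 windows of the table was also 6, but the spread was not the same. At least 10 CG were found in 19.6% of the windows of the higher genes and in 37.8% of all windows. At least 1 CG was found in 98.0% and 92.1%. Copies of 1 gene list had like counts in some families, with 1 in each of the 6 windows matched for the Gm8764 list, 3 in each of 3 for Zscan4, and 5 to 7 in each of 5 for the Pramel3 list. For Xlr5 they were 14, 12 and 1.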

How the data were processed

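RNA of 2 samples, 1 control and 1 Dnmt1 KO, was measured on 1 array each. The RNA was extracted with phenol, cleaned on columns and labelled with biotin, per the labels' protocols. The authors deposited linear signal intensities, which the submitters' processing notes tie to MAS5 (the Affymetrix summary of a probe set). Any target intensity or detection call is not given in the sources used here. Precision is limited by having 1 array per group.

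Of 45101 probe sets, 64 controls were left out. Genes came from the platform annotation and, by identifier, from RefSeq GRCm38.p6 for chromosome, gene order and type. The build of the array annotation is not given, so only RefSeq windows carry coordinates. Floor and shift are as described above, and a probe set was counted at 2-fold. Python 3.11.15, pandas 2.3.3, statsmodels 0.14.6 and Biopython 1.88 were used. The lowess used a fraction of 0.4 of the points. The procedure was tested on simulated data, with changes planted only in probe sets far above the control floor. Raised probe sets near that floor, and lower bounds, were not part of it.

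The members and family lists were chosen with earlier results of these data known. Named were Dnmt1, the 15 largest ratios in each direction, the 8 largest bounds in each direction, up to 4 members and the brightest per family, and the 5 brightest. Not all of these are printed. The other probe sets at 2-fold, single-gene partners and probe sets of a shared gene list were named after their values were seen. Alternatives were centring, normalization, floor, threshold, membership and chromosome 8.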

Additional observations from a re-analysis of the deposited data

How the results depend on the processing

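Of the 20 shared probe sets at least 2-fold higher, all 20 were also called as deposited (44 in all), after scaling each array to its own median (24), after quantile normalization (20) and after lowess (20). The first 2 settings take off less than the shift, so keeping all 20 was fixed in advance for them. None was lower under these 4 settings. Over all 24084 measured probe sets the 4 settings gave, in order, 1082, 384, 269 and 285 higher and 30, 68, 119 and 104 lower. A floor at the 25th percentile gave 40 higher and 20 lower, one at the 75th percentile 12 and 0, and no floor, with log2(signal + 1), 78 and 66. Over all probe sets, the 25th percentile floor gave 900 higher and 1095 lower of 35902 measured. The 75th percentile floor gave 77 and 19 of 11980, and no floor 2548 and 3856 of 45037. Calls among shared probe sets thus rose and fell with those of the whole array. Thresholds of 1.5-fold and 3-fold gave 44 and 15, and 13 and 0, with the shares over all probe sets not given here. Requiring 2 or more symbols other than predicted, clone-type and small RNA genes left 11 higher. This drops the lists with H19, Gm8764, Eif1a, Pramel3, Gm2022, Gm2832, Ass1, Tulp4 and Plp2. Of the 2-cell-like list, only the Zscan4 probe set then stayed called. Using 1 probe set per gene list gave 18, and leaving out chromosome 8 gave 20. The median log2 ratio of all shared probe sets was 0.37 as deposited. The cause of the other changes was not tested. The floor at the 75th percentile ended the calls of both Xlr5 probe sets, Dmrtc1c, Gm2022, Gm2832, Tmem181a, Plp2 and Serpinb9e. There the bounds for Xlr3 and Fthl17 became 3.01 and 1.46, Gm2832 0.41 and the first Xlr5 probe set 0.17, since the floor itself was higher. The family medians of the X-linked germline list (0.79 to 2.32), the 2-cell-like list (1.76 to 3.04) and the imprinted list (0.39 to 0.83) were above 0 in all 8 settings, but 6 of the 7 measured X-linked and 2 of the 5 measured 2-cell-like members are bounds that entered through the KO array, so this sign shows no stability. Those of histones (-0.13 to 0.37) and ribosomal proteins (-0.14 to 0.28) crossed 0. No named probe set at 2-fold changed sign. Of the 20, however, 11 entered through the KO array alone, so their sign was largely set by the filter. No paired analysis was possible because each group has 1 array.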

Other observations

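Several shared probe sets outside the family lists, chosen after their values were seen, lay between the shift and 2-fold. The 3 probe sets for Nptxr, a neuronal pentraxin receptor, and the overlapping Npcd went from 80.8 to 192.5, from 128.8 to 261.1 and from 232.1 to 428.9, log2 ratios of 0.85, 0.62 and 0.48. All 3 lay above the shift. Zfx, an X-linked zinc finger gene, was listed with Zfa-ps on 3 probe sets, which went from 90.1 to 219.0 (0.88), from 57.1 to 126.4 (at least 0.65) and from 295.5 to 401.2 (0.04). Of 3 probe sets for the homeobox genes Duxbl1, Duxbl2 and Duxbl3, 2 were above the floor on the KO array alone, at 136.6 and 102.5, with log2 ratios of at least 0.76 and at least 0.35. The 4 probe sets for Zbed6 and Zc3h11a, where Zbed6 lies within the other gene, differed in sign, with log2 ratios of 0.33, 0.30, 0.05 and -0.55. Mettl7a1 and Mettl7a2 shared a probe set that went from 62.8 to 139.6 (0.75), while one listing 3 further genes went from 113.7 to 152.6 (0.02).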
